A study of Zea mays with 18 samples.

Results

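The NIGT1/HHO-type genes of maize are those whose description in the deposited table names the rice factor NIGTH1 or an Arabidopsis HHO or HRS1 factor. A search of the descriptions found 5 such genes among 47334, and 4 of them were expressed highly enough to be tested, among 26011 genes tested in all. Root RNA of maize seedlings was sequenced in 6 groups of 3 libraries each, described as biological replicates. The groups were *zmnlp3.1* under KNO3, *zmnlp3.1* under KCl, *zmnrt1.1b* under KNO3, *zmnrt1.1b* under KCl, WT under KNO3 and WT under KCl. All seedlings had grown for 10 days in full nutrient solution and for 4 days without nitrogen before they received 5 mM KNO3 or 5 mM KCl for 2 h. The KCl roots therefore give the state of nitrogen-starved seedlings with the same amount of potassium and without NO3-. Both mutants were made with CRISPR/Cas9 in the inbred line ND101, and the GEO labels call them knockdown plants. *zmnrt1.1b* lacks the function of the nitrate transporter ZmNRT1.1B, and *zmnlp3.1* that of the NIN-like transcription factor ZmNLP3.1. The sources used here do not say which mutant line was sequenced. They give both targets IDs of an older annotation, which were not linked to the IDs of the table here, so the targeted genes were not checked.

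NIGT1, HRS1 and HHO proteins are transcription factors of the GARP group, which bind DNA through a single Myb-like domain and repress their targets. In Arabidopsis the genes of several of them are switched on within a short time of nitrate supply by NLP factors. These proteins then lower the transcription of high-affinity nitrate transporters such as NRT2.1 and of their own genes. Whether HHO5 is one of these was not checked here. In Arabidopsis they also act on genes of phosphate starvation, where they meet the PHR factors and the SPX proteins, and the rice NIGT1 protein is known as a nitrate-induced repressor of its own promoter.

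The libraries held 16955904 to 19116969 reads on genes, recovered from the FPKM values. Within a group, the mean correlation of a library with the others was 0.943 to 0.971 in 17 libraries and 0.941 in *zmnrt1.1b* KNO3 replicate 2. All 6 root marker genes, which encode Casparian strip membrane proteins of the endodermis, reached 1 FPKM. Of 32 shoot markers, which encode chlorophyll-binding proteins and the Rubisco small subunit, 12 reached 1 FPKM and 7 were at 0 in every library. In whole roots, fewer cells of a type and less RNA per cell cannot be told apart.

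Of the 5 genes, 3 were described by their rice match NIGTH1 and the other two by their Arabidopsis match HHO5. gene_Zm00001d007962 (NIGTH1) lies on chromosome 2 of B73 RefGen_v4, from 244254163 to 244256107 on the minus strand. gene_Zm00001d034160 (HHO5) lies on chromosome 1, from 285335178 to 285337132 on the plus strand. gene_Zm00001d013202 (NIGTH1) lies on chromosome 5, from 6405099 to 6407194 on the minus strand. Zm00001d039637 (NIGTH1) lies on chromosome 3, from 9819488 to 9821687 on the minus strand. The table lists the Myb-like DNA-binding domain for gene_Zm00001d034160 and gene_Zm00001d013202. All 4 are protein coding, and none overlaps another gene of the table, the nearest neighbour lying 1524 bases away.

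The fifth gene, Zm00001d048992 (HHO5), is a short model on chromosome 4, from 11826554 to 11827210. It was listed at 0 in all 18 libraries and was not tested. The expressed genes spanned a wide range of levels per length. Their means over the 18 libraries were 37.2 FPKM for gene_Zm00001d007962, 26.3 for gene_Zm00001d034160, 10.8 for gene_Zm00001d013202 and 3.53 for Zm00001d039637. Each FPKM of the most abundant gene rested on 209 to 3143 reads, and each of the least abundant on 59 to 178 reads, so counting error alone came to between 7.5% and 13.0% of a value of Zm00001d039637.

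The first comparison asked which of these genes respond to NO3- in WT roots. In WT, gene_Zm00001d007962 and gene_Zm00001d034160 rose several-fold within 2 h of KNO3, and the other two tested genes did not pass the thresholds for a response (an adjusted p under 0.05 and a log2 fold change over 1). Among all genes tested, 2.75% rose in WT by the same thresholds. gene_Zm00001d007962, described by its match to the nitrate-induced rice repressor, was at 123, 127 and 110 FPKM in the WT KNO3 libraries, against 21.7, 18.2 and 18.0 FPKM in the WT KCl libraries. Every KNO3 library lay far above every KCl library. The group means were 120 ± 9.03 FPKM under KNO3 and 19.3 ± 2.09 FPKM under KCl (SD, n = 3 each). The log2 fold change was 2.63 (SE 0.15), with an adjusted p of 2.82e-08 by limma with Benjamini-Hochberg adjustment over all genes tested. By the size of the increase it was number 94 of the 26011 genes, and by its p number 9.

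gene_Zm00001d034160, whose Arabidopsis match HHO5 belongs to the same family of Myb-like repressors, was at 51.1, 63.8 and 68.6 FPKM in the WT KNO3 libraries, against 14.2, 13.0 and 10.7 FPKM in the WT KCl libraries. Here too the KNO3 and KCl libraries did not overlap. Its mean was 61.2 ± 9.03 FPKM under KNO3 and 12.6 ± 1.77 FPKM under KCl (SD, n = 3 each). The log2 fold change was 2.27 (SE 0.18, limma adjusted p = 5.71e-07), number 166 of the 26011 genes by size.

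**Figure D1:**
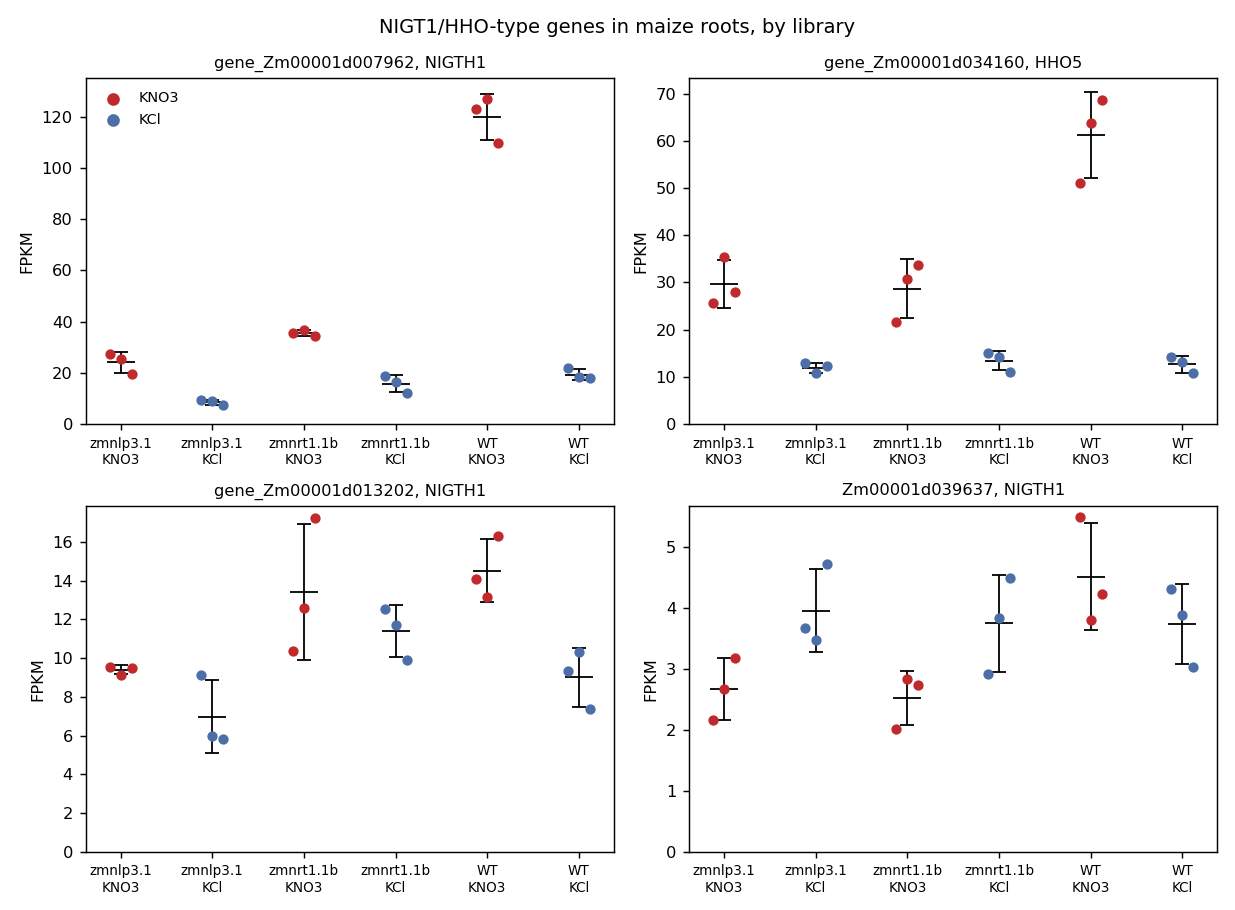
FPKM of the 4 expressed NIGT1/HHO-type genes in each of the 18 libraries, with the genotype and treatment on the x axis and a separate FPKM axis for each gene. Points are libraries, the long horizontal line is the mean and the bar 1 SD (n = 3). The WT KNO3 libraries of gene_Zm00001d007962 (110 to 127 FPKM) and of gene_Zm00001d034160 (51.1 to 68.6 FPKM) stand above all other groups. The libraries of gene_Zm00001d013202 span 5.82 to 17.2 FPKM and those of Zm00001d039637 span 2.01 to 5.50 FPKM.

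gene_Zm00001d013202, the second NIGTH1 gene, was at 14.1, 13.1 and 16.3 FPKM in the WT KNO3 libraries, against 9.35, 10.3 and 7.35 FPKM in the WT KCl libraries. The groups did not overlap, as was so for 17.4% of all genes tested in this direction. Its log2 fold change of 0.69 (SE 0.19) had an adjusted p of 0.0263 by limma and lay under the size threshold. Without a size threshold, 6.43% of all genes tested were higher under KNO3 in WT. Zm00001d039637, the third NIGTH1 gene, was at 5.50, 3.81 and 4.23 FPKM in the WT KNO3 libraries, against 4.32, 3.88 and 3.03 FPKM in the WT KCl libraries. These groups overlapped, and the log2 fold change was 0.26, with a 95% interval of -0.19 to 0.72 (limma adjusted p = 0.511).

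The next comparisons asked how the genes responded to NO3- in roots without ZmNLP3.1 or ZmNRT1.1B function. gene_Zm00001d007962 and gene_Zm00001d034160 rose under KNO3 in both mutants, by less than in WT. For gene_Zm00001d007962 the smaller response passed the test of the difference in both mutants, and for gene_Zm00001d034160 it did so in the fit to all libraries but not under many of the alternatives. In *zmnlp3.1*, 1.74% of all genes tested rose, and in *zmnrt1.1b* 2.03%.

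In *zmnlp3.1*, gene_Zm00001d007962 was at 27.2, 25.4 and 19.6 FPKM in the KNO3 libraries, against 9.33, 8.90 and 7.42 FPKM in the KCl libraries. In *zmnrt1.1b*, it was at 35.4, 36.6 and 34.2 FPKM in the KNO3 libraries, against 18.6, 16.6 and 12.2 FPKM in the KCl libraries. In both mutants every KNO3 library was above every KCl library of the same genotype, as was so for 16.3% of all genes tested in *zmnlp3.1* and 15.7% in *zmnrt1.1b*. The log2 response of gene_Zm00001d007962 was 1.48 in *zmnlp3.1* (SE 0.15, limma adjusted p = 3.53e-05). In *zmnrt1.1b* it was 1.18 (SE 0.15, limma adjusted p = 0.000196).

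The response of gene_Zm00001d007962 was thus smaller than in WT by 1.16 on the log2 scale in *zmnlp3.1* (difference -1.16, SE 0.22, limma adjusted p = 0.00791 for the interaction). In *zmnrt1.1b* the difference from WT was -1.45 (SE 0.22, limma adjusted p = 0.00582). By p, the second difference was number 24 of the 26011 genes and the first number 230. A response lower than in WT was called for 2.68% of all genes tested in *zmnlp3.1* and for 0.969% in *zmnrt1.1b*. Both differences share the WT libraries.

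gene_Zm00001d034160 was at 25.7, 35.4 and 28.0 FPKM in the *zmnlp3.1* KNO3 libraries, against 12.8, 10.7 and 12.2 FPKM in the *zmnlp3.1* KCl libraries. In *zmnrt1.1b* it was at 21.6, 30.7 and 33.6 FPKM in the KNO3 libraries, against 15.0, 14.2 and 11.1 FPKM in the KCl libraries. The KNO3 libraries lay above the KCl libraries in both mutants. The log2 response was 1.3 in *zmnlp3.1* (SE 0.18, limma adjusted p = 0.000351) and 1.07 in *zmnrt1.1b* (SE 0.18, limma adjusted p = 0.00132). The response in *zmnrt1.1b* was just over the size threshold. It came to 0.94 without *zmnrt1.1b* KCl replicate 4 and to 0.95 without *zmnrt1.1b* KNO3 replicate 5, under that threshold.

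The response of gene_Zm00001d034160 differed from WT by -0.96 in *zmnlp3.1* (SE 0.25, limma adjusted p = 0.0400) and by -1.19 in *zmnrt1.1b* (SE 0.25, limma adjusted p = 0.0320). The first of these calls was lost without any of 9 libraries, namely WT KCl replicates 2 and 3, WT KNO3 replicates 3 and 4, *zmnlp3.1* KCl replicates 1, 3 and 4, and *zmnlp3.1* KNO3 replicates 2 and 4. The adjusted p by limma was then 0.0509 to 0.105, and the difference -1.04 to -0.85. The second was lost without any of 6 libraries, namely WT KCl replicates 2 and 3, WT KNO3 replicates 3 and 4, and *zmnrt1.1b* KCl replicates 2 and 3. The adjusted p by limma was then 0.0513 to 0.10, and the difference -1.22 to -1.08.

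**Figure D2:**
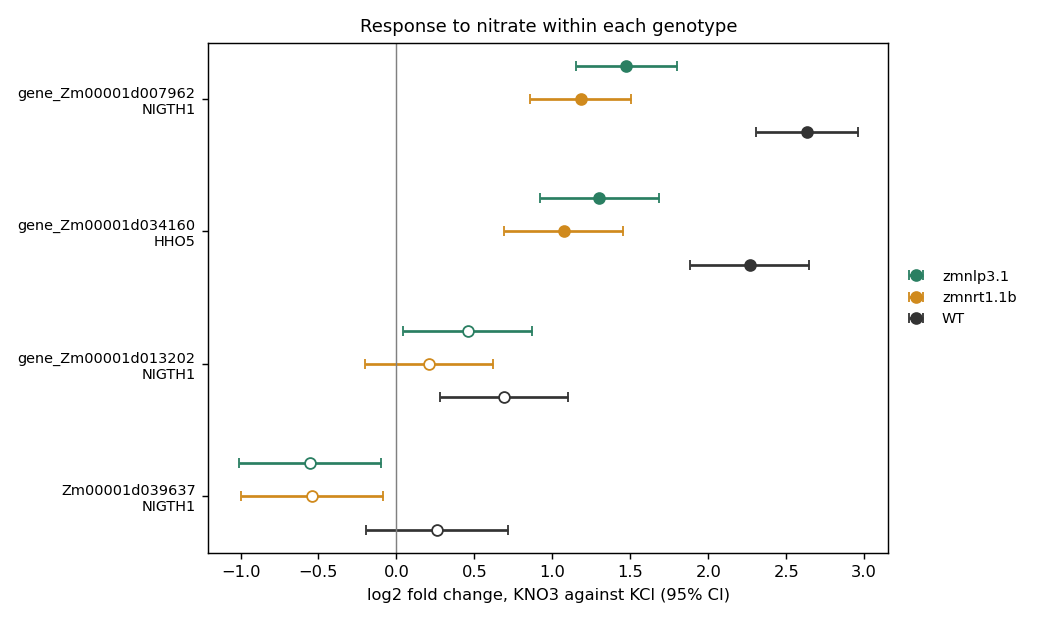
Log2 fold change of KNO3 against KCl within each genotype for the 4 tested genes, with 95% intervals from limma. Filled points passed the thresholds for a response and open points did not. gene_Zm00001d007962 has responses of 1.48 in *zmnlp3.1*, 1.18 in *zmnrt1.1b* and 2.63 in WT, and Zm00001d039637 has values below 0 in both mutants that did not pass.

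The responses of the other two genes did not pass in either mutant. gene_Zm00001d013202 was at 9.55, 9.13 and 9.49 FPKM in the *zmnlp3.1* KNO3 libraries, against 9.13, 5.96 and 5.82 FPKM in the *zmnlp3.1* KCl libraries, with a log2 fold change of 0.46 (limma adjusted p = 0.131). In *zmnrt1.1b* it was at 10.4, 12.6 and 17.2 FPKM in the KNO3 libraries, against 12.5, 11.7 and 9.90 FPKM in the KCl libraries, and the log2 fold change was 0.21 (limma adjusted p = 0.502). The KNO3 and KCl libraries of *zmnrt1.1b* overlapped, and in *zmnlp3.1* the lowest KNO3 library and the highest KCl library were level. The differences of its response from WT, -0.23 for *zmnlp3.1* (95% interval -0.82 to 0.35) and -0.48 for *zmnrt1.1b* (95% interval -1.06 to 0.10), did not pass.

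Zm00001d039637 was at 2.17, 2.68 and 3.19 FPKM in the *zmnlp3.1* KNO3 libraries, against 3.67, 3.48 and 4.73 FPKM in the *zmnlp3.1* KCl libraries. In *zmnrt1.1b* it was at 2.01, 2.84 and 2.73 FPKM in the KNO3 libraries, against 2.91, 3.83 and 4.50 FPKM in the KCl libraries. In both mutants the KNO3 libraries lay below the KCl libraries, opposite in direction to the values of the other tested members, as did those of 14% of all genes tested in *zmnlp3.1* and of 17.8% in *zmnrt1.1b*. The log2 fold changes were -0.55 in *zmnlp3.1* (limma adjusted p = 0.0981) and -0.54 in *zmnrt1.1b* (limma adjusted p = 0.0984). The difference from the WT response was -0.81 in each mutant (limma adjusted p = 0.136 for *zmnlp3.1* and 0.181 for *zmnrt1.1b*).

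Set against WT within a treatment, the NIGT1/HHO-type genes were lower in the mutants mainly under KNO3. Under KNO3, all 4 tested genes were lower in *zmnlp3.1* than in WT, and 3 of the 4 were lower in *zmnrt1.1b*. The share of all genes tested that were called lower was 16.7% in *zmnlp3.1* and 9.66% in *zmnrt1.1b*. The libraries of mutant and WT did not overlap for the same 4 and 3 genes, against 24.8% of all genes tested for *zmnlp3.1* and 18.4% for *zmnrt1.1b*. gene_Zm00001d007962 reached 20.1% of its WT mean in *zmnlp3.1* (24.1 ± 4.0 against 120 ± 9.03 FPKM, SD, n = 3 each) and 29.6% in *zmnrt1.1b* (35.4 ± 1.21 FPKM). The log2 differences from WT were -2.32 in *zmnlp3.1* (SE 0.15, limma adjusted p = 1.40e-07) and -1.75 in *zmnrt1.1b* (SE 0.15, limma adjusted p = 4.49e-06).

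gene_Zm00001d034160 averaged 29.7 ± 5.08 FPKM in *zmnlp3.1*, 28.6 ± 6.24 FPKM in *zmnrt1.1b* and 61.2 ± 9.03 FPKM in WT under KNO3 (SD, n = 3 each). Its log2 differences from WT were -1.04 in *zmnlp3.1* (SE 0.18, limma adjusted p = 0.000590) and -1.11 in *zmnrt1.1b* (SE 0.18, limma adjusted p = 0.000627). The highest mutant library, at 35.4 FPKM, was below the lowest WT library, at 51.1 FPKM.

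The weaker members were nearer the threshold. Zm00001d039637 was lower than in WT by 0.73 in *zmnlp3.1* (log2 difference -0.73, limma adjusted p = 0.0170) and by 0.81 in *zmnrt1.1b* (log2 difference -0.81, limma adjusted p = 0.0164). Without WT KNO3 replicate 1 these calls were lost (limma adjusted p = 0.0855 for *zmnlp3.1* and 0.0871 for *zmnrt1.1b*), as they were without *zmnlp3.1* KNO3 replicate 2 (0.0658) and without *zmnrt1.1b* KNO3 replicate 2 (0.0607). In the fit with only the groups compared, the call against WT in *zmnrt1.1b* was lost as well (limma adjusted p = 0.0519). gene_Zm00001d013202 was lower than in WT in *zmnlp3.1*, with a log2 difference of -0.62 (limma adjusted p = 0.0244). Its adjusted p by limma was 0.0543 without WT KNO3 replicate 1, 0.0831 without WT KNO3 replicate 4, 0.0616 without *zmnlp3.1* KNO3 replicate 3 and 0.0623 without *zmnlp3.1* KNO3 replicate 4. In *zmnrt1.1b* the same gene differed from WT by -0.14 (limma adjusted p = 0.655), with overlapping libraries.

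The root markers had a median log2 difference from WT of -0.59 in *zmnlp3.1* and -1.26 in *zmnrt1.1b* under KNO3. Their summed level was 40.3 to 57.6 FPKM in *zmnlp3.1*, 19.8 to 43.8 FPKM in *zmnrt1.1b* and 52.5 to 85.0 FPKM in WT under KNO3. The range of *zmnlp3.1* overlapped that of WT, and the range of *zmnrt1.1b* did not. By the same test 1 of the 6 was lower in *zmnlp3.1* and 4 of the 6 in *zmnrt1.1b*, against 16.7% and 9.66% of all genes tested. The part of the root markers in the result was not tested. The summed shoot markers were at 17.9 to 21.9 FPKM in *zmnlp3.1*, 15.7 to 21.2 FPKM in *zmnrt1.1b* and 18.1 to 20.9 FPKM in WT under KNO3, and these ranges overlap.

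Under KCl, 1 member differed from WT. gene_Zm00001d007962 averaged 8.55 ± 1.0 FPKM in *zmnlp3.1* and 19.3 ± 2.09 FPKM in WT (SD, n = 3 each), 44.3% of the WT mean. The log2 difference was -1.17 (SE 0.15, limma adjusted p = 0.000424), and the highest *zmnlp3.1* library, at 9.33 FPKM, was below the lowest WT library, at 18.0 FPKM. Of all genes tested, 6.81% were called lower in this comparison, and 16.5% were lower with no overlap. The summed shoot markers were also lower in these libraries, at 10.9 to 13.3 FPKM in *zmnlp3.1* under KCl, against 20.9 to 26.0 FPKM in *zmnrt1.1b* and 15.1 to 19.7 FPKM in WT, with no overlap. By the same test 1 of 8 tested shoot markers was lower in *zmnlp3.1* than in WT (4 at an unadjusted p under 0.05) and 3 of 8 were lower than in *zmnrt1.1b*. The summed root markers were at 42.7 to 61.5 FPKM in *zmnlp3.1*, 34.2 to 65.4 FPKM in *zmnrt1.1b* and 55.2 to 78.5 FPKM in WT under KCl, where 0 of 6 were called against WT by limma in either mutant, with 0 in *zmnlp3.1* and 1 in *zmnrt1.1b* at an unadjusted p under 0.05. The part of these markers in the result was not tested. In *zmnrt1.1b* it averaged 15.8 ± 3.28 FPKM under KCl, a log2 difference from WT of -0.30 (95% interval -0.63 to 0.02, limma adjusted p = 0.362), and 0 members were called against WT by limma, 0 also at an unadjusted p under 0.05 and 0 by voom on the recovered reads. In this comparison 1.85% of all genes tested were called lower and 2.06% higher. gene_Zm00001d034160 differed from WT by -0.08 in *zmnlp3.1* (95% interval -0.46 to 0.30) and by 0.08 in *zmnrt1.1b* (95% interval -0.30 to 0.47) under KCl.

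**Figure D3:**
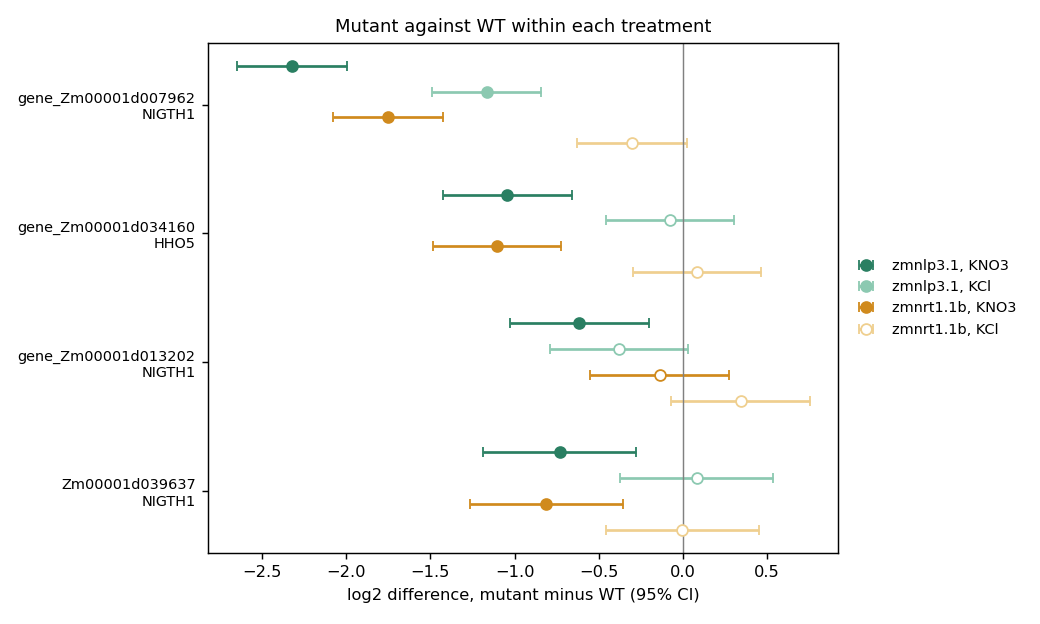
Log2 difference of each mutant from WT for the 4 tested genes, under KNO3 and under KCl, with 95% intervals from limma. Filled points had an adjusted p under 0.05. Under KNO3, 7 of the 8 points are filled, and under KCl only that of gene_Zm00001d007962 in *zmnlp3.1*, at -1.17.

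Between the mutants, *zmnlp3.1* had less gene_Zm00001d007962 RNA than *zmnrt1.1b* under both treatments. These comparisons were added after the values had been seen. Under KCl the log2 difference of *zmnlp3.1* from *zmnrt1.1b* was -0.86 (SE 0.15, limma adjusted p = 0.00264), where 7.01% of all genes tested were lower, as were the summed shoot markers given above for KCl. Under KNO3 it was -0.57 (SE 0.15, limma adjusted p = 0.0208), where 8.63% of all genes tested were lower, and it lost its call without *zmnlp3.1* KNO3 replicate 4 (-0.43, limma adjusted p = 0.113). The *zmnlp3.1* and *zmnrt1.1b* libraries did not overlap under either treatment, as was so in this direction for 17.7% of all genes tested under KCl and 14.8% under KNO3. The responses to NO3- of the mutants differed by 0.29 for gene_Zm00001d007962, *zmnlp3.1* minus *zmnrt1.1b* (95% interval -0.17 to 0.76, limma adjusted p = 0.599), and by 0.23 for gene_Zm00001d034160 (95% interval -0.31 to 0.77, limma adjusted p = 0.756). Of all genes tested, 1.38% had a larger and 0.411% a smaller response in *zmnlp3.1* than in *zmnrt1.1b*, and 0 members did by limma, 0 also at an unadjusted p under 0.05 and 0 by voom. gene_Zm00001d034160 differed between the mutants by -0.16 under KCl and by 0.06 under KNO3 (limma adjusted p = 0.609 and 0.843). gene_Zm00001d013202 was lower in *zmnlp3.1* than in *zmnrt1.1b* under KCl, by a log2 difference of -0.72 (limma adjusted p = 0.0282). That call was lost without *zmnrt1.1b* KCl replicate 2 (0.123) or 3 (0.0878) and without *zmnlp3.1* KCl replicate 3 (0.103) or 4 (0.120), each an adjusted p by limma. Under KNO3 its log2 difference was -0.48 (limma adjusted p = 0.106), and it passed without *zmnrt1.1b* KNO3 replicate 2 (-0.64, limma adjusted p = 0.0486).

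In order of their FPKM, the groups of gene_Zm00001d007962 ran from WT under KNO3 through *zmnrt1.1b* under KNO3, *zmnlp3.1* under KNO3, WT under KCl and *zmnrt1.1b* under KCl down to *zmnlp3.1* under KCl. The libraries of *zmnlp3.1* under KNO3, at 19.6 to 27.2 FPKM, overlapped those of WT under KCl, at 18.0 to 21.7 FPKM. For gene_Zm00001d034160, WT under KNO3 stood apart at the top. Below it lay the KNO3 groups of the 2 mutants, which overlapped each other, and then the 3 KCl groups between 10.7 and 15.0 FPKM, which also overlapped. For gene_Zm00001d013202 the only neighbours in the order that did not overlap were *zmnlp3.1* under KNO3 (9.13 to 9.55 FPKM) and *zmnrt1.1b* under KCl (9.90 to 12.5 FPKM). For Zm00001d039637 each group overlapped the next, within 2.01 to 5.50 FPKM.

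Because FPKM is a level per length, the members can be summed. The 4 genes together came to 60.3 to 72.6 FPKM in *zmnlp3.1* under KNO3 and 29.1 to 35.0 FPKM in *zmnlp3.1* under KCl. In *zmnrt1.1b* the sum was 69.5 to 87.8 FPKM under KNO3 and 37.7 to 49.1 FPKM under KCl. In WT it was 194 to 208 FPKM under KNO3 and 39.1 to 49.6 FPKM under KCl. The sum in the starved roots of *zmnlp3.1* was below that of every starved WT root, and that of *zmnrt1.1b* overlapped it.

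The make-up of the sum differed between the groups and did not follow its level across all of them. gene_Zm00001d007962 made up 32.5 to 42.1% of it in *zmnlp3.1* under KNO3, 39.0 to 51.0% in *zmnrt1.1b* under KNO3 and 55.2 to 63.5% in WT under KNO3. Under KCl it made up 24.6 to 30.6% in *zmnlp3.1*, 32.4 to 37.9% in *zmnrt1.1b* and 40.1 to 46.0% in WT. WT under KCl thus had a lower sum than *zmnlp3.1* under KNO3, with a mean share of 43.3% against 36.5%. In *zmnlp3.1*, gene_Zm00001d034160 had the highest mean share under both treatments, with 45.0% under KNO3 and 38.0% under KCl, against 36.5% and 27.3% for gene_Zm00001d007962. Under KNO3 these shares overlapped, at 39.7 to 48.8% for gene_Zm00001d034160, and in *zmnlp3.1* KNO3 replicate 2 gene_Zm00001d007962 had the higher share. In *zmnrt1.1b* and WT, gene_Zm00001d007962 had the highest mean share under both treatments.

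**Figure D4:**
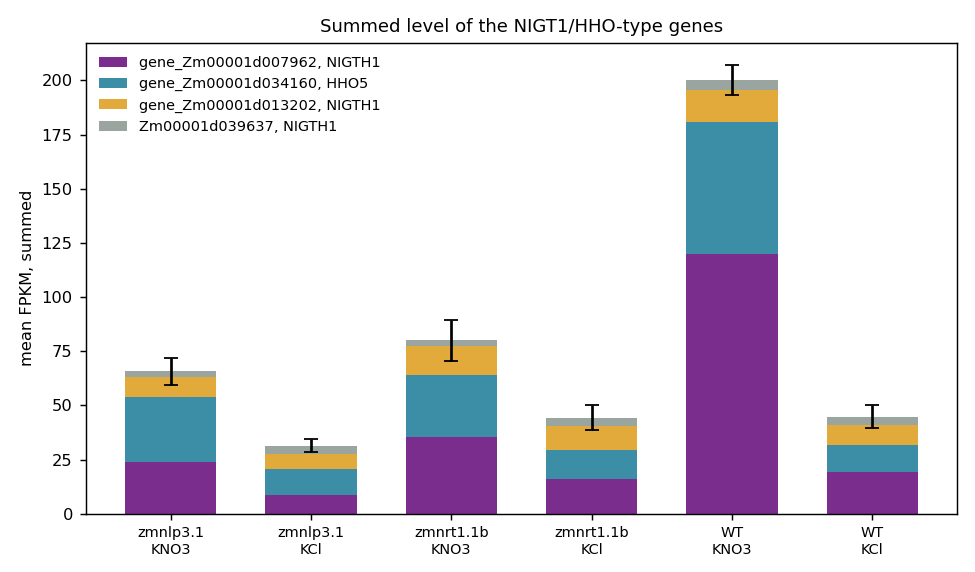
Mean FPKM of the 4 expressed NIGT1/HHO-type genes stacked for each group, with the genotype and treatment on the x axis, and bars of 1 SD of the summed level (n = 3 libraries). The WT KNO3 bar reaches 200 FPKM, that of *zmnrt1.1b* under KNO3 80.0 FPKM and that of *zmnlp3.1* under KNO3 65.8 FPKM, and gene_Zm00001d007962 is the largest part of the WT bar.

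Over the 18 libraries, the levels of gene_Zm00001d007962 and gene_Zm00001d034160 had a Pearson correlation of 0.91 on the log2 scale. That of gene_Zm00001d007962 with gene_Zm00001d013202 was 0.75, and that with Zm00001d039637 was 0.05. The libraries share genotype, treatment and depth, so these values are descriptions. The tested genes most like gene_Zm00001d007962 were Zm00001d011964, described as a probable glucuronosyltransferase, Zm00001d018177, which has no description, and Zm00001d011428, a uroporphyrinogen III methyltransferase, an enzyme of the path to siroheme, the cofactor of nitrite reductase. Each had a Pearson correlation of 0.98 with it over 18 libraries. Zm00001d011428 had log2 responses of 1.74 in *zmnlp3.1*, 1.3 in *zmnrt1.1b* and 2.47 in WT, beside 1.48, 1.18 and 2.63 for gene_Zm00001d007962. In the same order, those of Zm00001d011964 were 0.68, 0.73 and 1.52, and those of Zm00001d018177 were 0.63, 0.68 and 1.52. Most like gene_Zm00001d034160 were Zm00001d008588, an L-Ala-D/L-amino acid epimerase, Zm00001d014324, an uncharacterized calcium-binding protein, and Zm00001d044644, the protein kinase CIPK32, each with a correlation of 0.95. The log2 responses of Zm00001d044644 were 1.80 in *zmnlp3.1*, 1.94 in *zmnrt1.1b* and 2.34 in WT. In the same order, those of Zm00001d008588 were 1.37, 1.39 and 2.12, and those of Zm00001d014324 were 1.02, 1.24 and 2.19.

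Genes of the pathways in which NIGT1-type factors act in other plants were counted from lists of descriptions. Beside the shares of all genes tested that rose, given above, 2.29% fell in *zmnlp3.1*, 2.62% in *zmnrt1.1b* and 2.88% in WT, and with so few genes a list, a count of 1 is not a result about the list. A list of 16 further tested genes of the GARP group was limited to PHL, GLK, KAN, LUX and PCL1 factors. Of these, 2 rose in *zmnlp3.1*, 2 in *zmnrt1.1b* and 2 in WT, and 1 fell in WT. The one that fell was Zm00001d002439 (PHL11), at -1.51 on the log2 scale, named after its values were seen. It averaged 2.01 FPKM over the 18 libraries. Its response in *zmnlp3.1* differed from WT by 1.80 (limma adjusted p = 0.00969), the only response of the list called different from WT in either mutant. Under KNO3 it was higher than in WT by 1.87 in *zmnlp3.1* and 2.25 in *zmnrt1.1b* on the log2 scale (limma adjusted p = 7.20e-05 and 3.13e-05). The median log2 response of this list was 0.20 in *zmnlp3.1*, 0.26 in *zmnrt1.1b* and 0.19 in WT, against 0.0099, -0.026 and -0.0034 over all genes tested. Both that rose in WT are described as PHL5. The more abundant, gene_Zm00001d026542, averaged 19.4 ± 5.03 FPKM under KNO3 and 8.37 ± 2.53 FPKM under KCl in *zmnlp3.1*, 30.6 ± 6.22 and 10.01 ± 1.98 FPKM in *zmnrt1.1b*, and 58.9 ± 6.77 FPKM under KNO3 and 12.2 ± 3.44 FPKM under KCl in WT (SD, n = 3 each). Its log2 response was 1.22 in *zmnlp3.1*, 1.60 in *zmnrt1.1b* and 2.29 in WT (limma adjusted p = 0.00594, 0.000969 and 1.96e-05). Its differences from the WT response, -1.08 in *zmnlp3.1* and -0.70 in *zmnrt1.1b*, did not pass (limma adjusted p = 0.10 and 0.338).

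Of 6 tested genes for NRT2 transporters and their activating proteins, which are targets of NIGT1-type repressors in Arabidopsis, 0 rose in each mutant and 3 in WT by limma. At an unadjusted p under 0.05, 0 were higher in *zmnlp3.1*, 3 in *zmnrt1.1b* and 4 in WT. The median log2 response of the list was 0.44 in *zmnlp3.1*, 0.63 in *zmnrt1.1b* and 1.24 in WT. Of the genes described as NRT2.1, gene_Zm00001d054060 had log2 responses of 0.91 in *zmnlp3.1*, 1.65 in *zmnrt1.1b* and 1.93 in WT (limma adjusted p = 0.300, 0.0561 and 0.0297). Another of that description, gene_Zm00001d054057, averaged 388 FPKM over the 18 libraries, against 443 FPKM for gene_Zm00001d054060. It was not among the 3 that rose in WT, and it lies outside the 2 most abundant genes of the list. By limma 0 of the 6 had a response that differed from WT in either mutant, and at an unadjusted p under 0.05 there were 2 in *zmnlp3.1* and 0 in *zmnrt1.1b*. In level under KNO3, 3 of the 6 were called lower and 1 higher than WT in *zmnlp3.1*. In *zmnrt1.1b*, 1 was called lower and 0 higher. Of all genes tested, 16.7% and 9.66% were called lower in these comparisons. For gene_Zm00001d054060 this log2 difference was -2.03 in *zmnlp3.1* and -0.54 in *zmnrt1.1b* (limma adjusted p = 0.0117 and 0.529). Of 10 tested NLP genes, whose products switch on NIGT1-type genes in Arabidopsis, 1 fell in *zmnlp3.1*, 0 in *zmnrt1.1b* and 1 in WT, with median log2 responses of -0.22, -0.075 and -0.088. In both it was Zm00001d006293 (NLP1), at -1.04 in *zmnlp3.1* and -1.22 in WT, named after its values were seen. No NLP gene rose by limma, and at an unadjusted p under 0.05 there was 1 that was higher in WT and 0 in each mutant. Of 4 tested nitrate reductase genes 2 rose in each mutant and 3 in WT, and of 4 tested nitrite reductase genes 3 rose in every genotype.

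On the phosphate side, 0 of 5 tested genes for SPX proteins, which sense phosphate, passed in either direction in any genotype by limma. At an unadjusted p under 0.05, 1 was lower in *zmnlp3.1*, 2 in *zmnrt1.1b* and 1 in WT. Their median log2 response was -0.37 in *zmnlp3.1*, -0.33 in *zmnrt1.1b* and -0.00022 in WT. Of 13 tested genes described as PHOSPHATE STARVATION RESPONSE, 6 carry the name ALTERED PHOSPHATE STARVATION RESPONSE 1, which is not a PHR factor, and 7 are PHR factors. A single one rose in WT, Zm00001d014701 (PHR3), with a log2 fold change of 1.09 (limma adjusted p = 6.10e-06). In *zmnlp3.1* its response was smaller, the log2 difference from WT being -0.81 (limma adjusted p = 0.00806), and it was named after its values were seen. Of 6 tested phosphate transporter genes, 2 rose in each genotype and 1 fell in WT, with median log2 responses of 0.37 in *zmnlp3.1*, 0.034 in *zmnrt1.1b* and -0.051 in WT. Those that rose were Zm00001d027700 (transporter 1-2) and Zm00001d031875 (transporter 1-6) in every genotype, named after their values were seen. The one that fell, gene_Zm00001d032850 (transporter 1-8), averaged 25.7 ± 7.61 FPKM in *zmnlp3.1* roots under KNO3 and 24.8 ± 7.70 FPKM under KCl, and 39.7 ± 11.1 FPKM in WT roots under KNO3 and 93.2 ± 5.55 FPKM under KCl (SD, n = 3 each). In *zmnrt1.1b* it averaged 47.9 ± 14.3 FPKM under KNO3 and 81.2 ± 15.0 FPKM under KCl (SD, n = 3 each). Its log2 response was 0.06 in *zmnlp3.1* (limma adjusted p = 0.918), -0.78 in *zmnrt1.1b* (limma adjusted p = 0.0639) and -1.26 in WT (limma adjusted p = 0.00539). Of the 6 transporter genes, 0 had a response called different from WT in either mutant by limma. Under KCl, gene_Zm00001d032850 was lower in *zmnlp3.1* than in WT (log2 difference -1.96, limma adjusted p = 0.000603).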

How the data were processed

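Root RNA of 18 libraries was sequenced by the authors as 150 bp paired-end reads and aligned with HISAT2 (v2.0.5) to B73 RefGen_v4. The submitters' processing notes also name fastp and StringTie (v1.3.3b), and the authors made their own comparisons with DESeq2. The values used were FPKM as deposited by the authors, that is, fragments scaled by gene length and by a denominator for each library. This denominator was not the library's sum of reads. The read counter and its strand setting are not given in the sources used here.

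Multiplying FPKM by gene length and dividing by a step fitted to each library gave whole numbers within 0.05 for every value. These are called reads here, and by the definition of FPKM they stand for fragments. They numbered 16955904 to 19116969 per library. The denominators of the FPKM lay between 0.925 (WT KNO3 replicate 3) and 1.11 (*zmnlp3.1* KCl replicate 4) times these sums. Testing was limited to genes that reached 1 FPKM in 3 or more libraries. Their log2(FPKM + 0.1) was fitted in R (v4.3.3) by limma (v3.58.1), in 1 model over all 18 libraries with a trend of the variance on expression. Fold changes are on this scale and understate those of weakly expressed genes. Two-sided p-values were corrected over every tested gene after Benjamini and Hochberg. A response needed an adjusted p under 0.05 and an absolute log2 fold change over 1, and other contrasts an adjusted p under 0.05. The procedure was tested on simulated data. Python (v3.11.15) with pandas (v2.3.3) and matplotlib (v3.10.9) handled tables and plots.

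The genes and lists were chosen with earlier results of these data known. Each gene whose description names NIGTH1, HHO or HRS1 was taken, with full values for those called in any contrast or with a mean of at least 5 FPKM. The 3 genes most correlated with each member called in WT were named, and from each list at most the 2 most abundant genes, with exceptions stated. Alternatives were adding 1 FPKM in place of 0.1 before the logarithm, lowering the minimum to 0.1 FPKM or dropping it, rescaling by median ratios, only the groups compared, a replicate block, voom on the recovered reads, and leaving out each library in turn. Same-numbered KNO3 and KCl libraries of a genotype had deviations from their group means correlated at -0.070 to 0.27, and unlike-numbered ones at -0.23 to 0.16. These ranges overlap but do not decide whether the numbers mark pairs. The main fit did not take them as pairs.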

Additional observations from a re-analysis of the deposited data

Results flagged for a closer look

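The response to NO3- of both induced genes differed between genotypes by the interaction test of limma, in which a negative value is a smaller response than in WT. For gene_Zm00001d007962 the difference was -1.16 on the log2 scale in *zmnlp3.1* and -1.45 in *zmnrt1.1b*. For gene_Zm00001d034160 it was -0.96 in *zmnlp3.1* and -1.19 in *zmnrt1.1b*. The 4 values share the WT libraries.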

How the results depend on the processing

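No direction of a called result was reversed under any alternative. The rescaling by median ratios had the same factor, 1.00751, in all 18 libraries, so it is no test of the scaling, though it is counted here. Of 48 results for single genes, 39 kept their side of the threshold under every alternative run, and 655 of 696 single values did. For gene_Zm00001d007962 these include the 3 responses, both differences of the response from WT, both levels against WT under KNO3 and that of *zmnlp3.1* under KCl. In 26 of the 696 values, all of comparisons that had not been called, the sign differed.

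The number of members that responded in *zmnrt1.1b* was 2, and 1 with the replicate block or at the lowest of the fits that left out a library (1 to 2). gene_Zm00001d034160 had a log2 fold change of 0.96 with the block. The number with a smaller response in *zmnlp3.1* than in WT was 2, and 1 with no minimum, with the replicate block and with voom, and 1 to 2 over the left-out libraries. For gene_Zm00001d034160 the adjusted p by limma was then 0.0547, 0.0783 and 0.0573. The number with a smaller response in *zmnrt1.1b* was 1 to 2 over the left-out libraries. For *zmnlp3.1* against WT under KNO3 it was 4, and 2 with voom, and 2 to 4 over the left-out libraries, with an adjusted p by voom of 0.0626 for gene_Zm00001d013202 and 0.0634 for Zm00001d039637. Voom scaled each library by its sum of recovered reads over the genes tested, not by the denominator of the deposited FPKM. With it the median of all genes in this comparison was 0.13, against -0.0044 on FPKM. In *zmnrt1.1b* against WT under KNO3 the number was 3, 2 with only the groups compared, where Zm00001d039637 had an adjusted p of 0.0519 by limma, and 2 to 3 over the left-out libraries. For *zmnlp3.1* against *zmnrt1.1b* it was 2 under KCl, and 1 with only the groups compared and with voom (1 to 2 over the left-out libraries), and 1 under KNO3, and 0 with only the groups compared (0 to 2). The cause of these changes was not tested. Fits with only the groups compared use fewer libraries.

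The replicate block changed no other number of members called. Its pairing is by number only, and the check of the pairing found same-numbered libraries correlated at -0.070 to 0.27 and unlike-numbered ones at -0.23 to 0.16. That check was made within each genotype, while the block also ties equal numbers of different genotypes. Over all genes tested, the block gave 1182 genes with a response that differed between *zmnrt1.1b* and WT, against 393 without it.

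Over all genes, a pseudocount of 1 FPKM gave 786 responses in *zmnrt1.1b* and 624 in *zmnlp3.1*, against 1208 and 1048. With only the groups compared there were 450 responses in *zmnlp3.1*. The genes called against WT were then 1680 for *zmnrt1.1b* under KCl (1019 in the fit to all libraries), 990 for *zmnlp3.1* under KCl (2442) and 2945 for *zmnrt1.1b* under KNO3 (4568). Responses that differed between *zmnrt1.1b* and WT were 622 (393), and between *zmnlp3.1* and *zmnrt1.1b* 189 (465). Genes called between the mutants were 1370 under KCl (2499) and 1207 under KNO3 (3994). Leaving out 1 library gave 775 to 1333 responses in *zmnrt1.1b*, 503 to 607 genes against WT for *zmnrt1.1b* under KCl, 1307 to 2500 for *zmnlp3.1* under KCl, 2523 to 4305 for *zmnrt1.1b* under KNO3 and 5148 to 7922 for *zmnlp3.1* under KNO3 (8181). Responses that differed from WT were then 77 to 495 in *zmnrt1.1b* and 583 to 1523 in *zmnlp3.1* (1272).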
